A study of Mus musculus with 6 samples.

Results

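The genes described here make heparan sulphate and its heavily sulphated form heparin, or carry those chains. They were taken by symbol (GENCODE M21) from a table of 43629 genes and number 10: the core protein gene Srgn, the polymerase genes Ext1 and Ext2, the epimerase gene Glce, and the sulphotransferase genes Ndst1, Ndst2, Hs2st1, Hs6st1, Hs6st2 and Hs3st1. All 10 were found in the table. Hs6st2 was chosen for its low level in Gata2+/f, so its difference between the groups is given as a description, with no test. The RNA was that of marrow cells sorted for c-kit, thawed from frozen marrow of C57BL/6 mice at the leukaemia end point. Both groups carried Cbfb-MYH11, the fusion gene that the chromosome 16 inversion of human leukaemia makes. The 6 libraries were 3 with both Gata2 alleles written as + (Gata2+/+, replicates 3, 5 and 6) and 3 with 1 allele written as f (Gata2+/f, replicates 7, 9 and 11), and totals ranged from 53789568 to 67854631 expected counts. What the f allele removes, the Cre line and the age of the mice are not given in the sources used here. The labels number the libraries without saying that each number is a separate mouse, so p-values measure the spread between these libraries.

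Heparan sulphate chains are built in the Golgi on a short linkage sugar attached to a core protein. Ext1 and Ext2 together lengthen the chain, Ndst enzymes replace acetyl groups by sulphate, Glce turns glucuronic into iduronic acid, and Hs2st1, the Hs6st enzymes and the Hs3st enzymes add further sulphate groups. In most cells the chains sit on surface proteins and bind growth factors and chemokines. Mast cells, which depend on Gata2, instead make heparin on serglycin (the product of Srgn) with Ndst2, and store histamine and positively charged proteases on it in their granules.

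Gata2 itself, the check of the labels, was at 886, 887 and 737 CPM (counts scaled to library size with TMM factors) in Gata2+/+ replicates 3, 5 and 6 and at 498, 273 and 264 CPM in Gata2+/f replicates 7, 9 and 11. Its log2 fold change was −1.28 (SE 0.32), with an adjusted p of 0.109 by edgeR and 0.00684 by DESeq2. Kit, the receptor used for the sort, was present in each library, at 826 to 1466 CPM in Gata2+/+ against 175 to 328 CPM in Gata2+/f. Markers of several cell types differed with the genotype. Of 10 mast cell markers, 8 were lower in each Gata2+/f library than in any Gata2+/+ library, with summed levels of 10148 to 12462 CPM in Gata2+/+ against 1035 to 3907 CPM in Gata2+/f, the last in replicate 11. None of the 10 was at 0 in every library, and Tpsb2 was at 0 counts in Gata2+/f replicates 7 and 9. Of 10 late neutrophil markers, 8 lay higher in the same sense, from 151 to 443 CPM summed in Gata2+/+ and from 4001 to 8000 CPM in Gata2+/f, with none at 0. Of 10 monocyte markers, 5 did, with 235 to 669 against 879 to 2063 CPM and none at 0. Of 8 megakaryocyte markers (Gp6 at 0 in every library) 6 were tested, with 3 log2 fold changes below and 3 above 0. Only Itga2b was lower without overlap (495 to 647 of a sum of 583 to 756 CPM in Gata2+/+, against 20.4 to 106 of 45.7 to 198 CPM). It made up most of that sum in each library but Gata2+/f replicate 7 (20.4 of 45.7 CPM). Of 10 erythroid markers, 1 was lower (Hbb-bs) and 3 higher (Epor, Tfrc and Add2) without overlap. The sum of the 10 was 6286 to 10398 against 1484 to 6545 CPM, mostly of globin genes except in Gata2+/f replicate 7. Of 10 lymphoid markers, 6 were tested and 2 of those were higher without overlap (Cd79b and Klrd1). The sum of the 10, mostly of Nkg7, was 13.9 to 48.2 against 36.3 to 127 CPM. Of 10 endothelial and stromal markers, 7 were tested, with 1 lower (Pdgfrb) and 2 higher (Kdr and Pecam1) without overlap. The sum of these 10 was 66.2 to 79.1 against 52.4 to 142 CPM. Over all tested genes, 16.6% were lower and 13.1% higher without overlap. In bulk RNA, fewer cells of a type and less RNA per cell cannot be told apart, and the part these markers have in the results below was not tested.

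Srgn and the enzyme genes Ndst2, Ext1, Hs6st1, Hs2st1 and Hs6st2 were at lower levels in Gata2+/f, while the groups overlapped for Ext2, Ndst1, Glce and Hs3st1. Among the 9 genes other than Hs6st2, the groups did not overlap for 5, all lower in Gata2+/f (Srgn, Ndst2, Ext1, Hs6st1 and Hs2st1), against 16.6% of all 15432 tested genes lower without overlap. The same 5 were those with an unadjusted p below 0.05 by edgeR (quasi-likelihood), where 22.6% of all tested genes were in either direction and 11.5% were lower. The genes described here were chosen with earlier results of these data known, so both comparisons with all tested genes are descriptions only. Hs3st1 was too low to be tested. After Benjamini-Hochberg adjustment across the whole table, edgeR called 0 of the 8 tested genes (threshold 0.05), and 0.0% of all genes. Adjusted p ranged from 0.0955 for Ndst2 to 0.919 for Ext2. Before adjustment, 3486 genes of the table had p below 0.05. DESeq2's Wald test, an alternative that called 1829 genes (11.9% of 15336; 5.73% lower and 6.19% higher), called Ndst2 (adjusted p = 0.000143) and Ext1 (adjusted p = 0.0499) lower, and limma voom (9 genes, 0.0583%) and the newer form of edgeR's test (32 genes, 0.207%) called 0 of the 8. The median log2 fold change of the 8 was −0.77, and that of all tested genes 0.019.

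**Figure D1:**
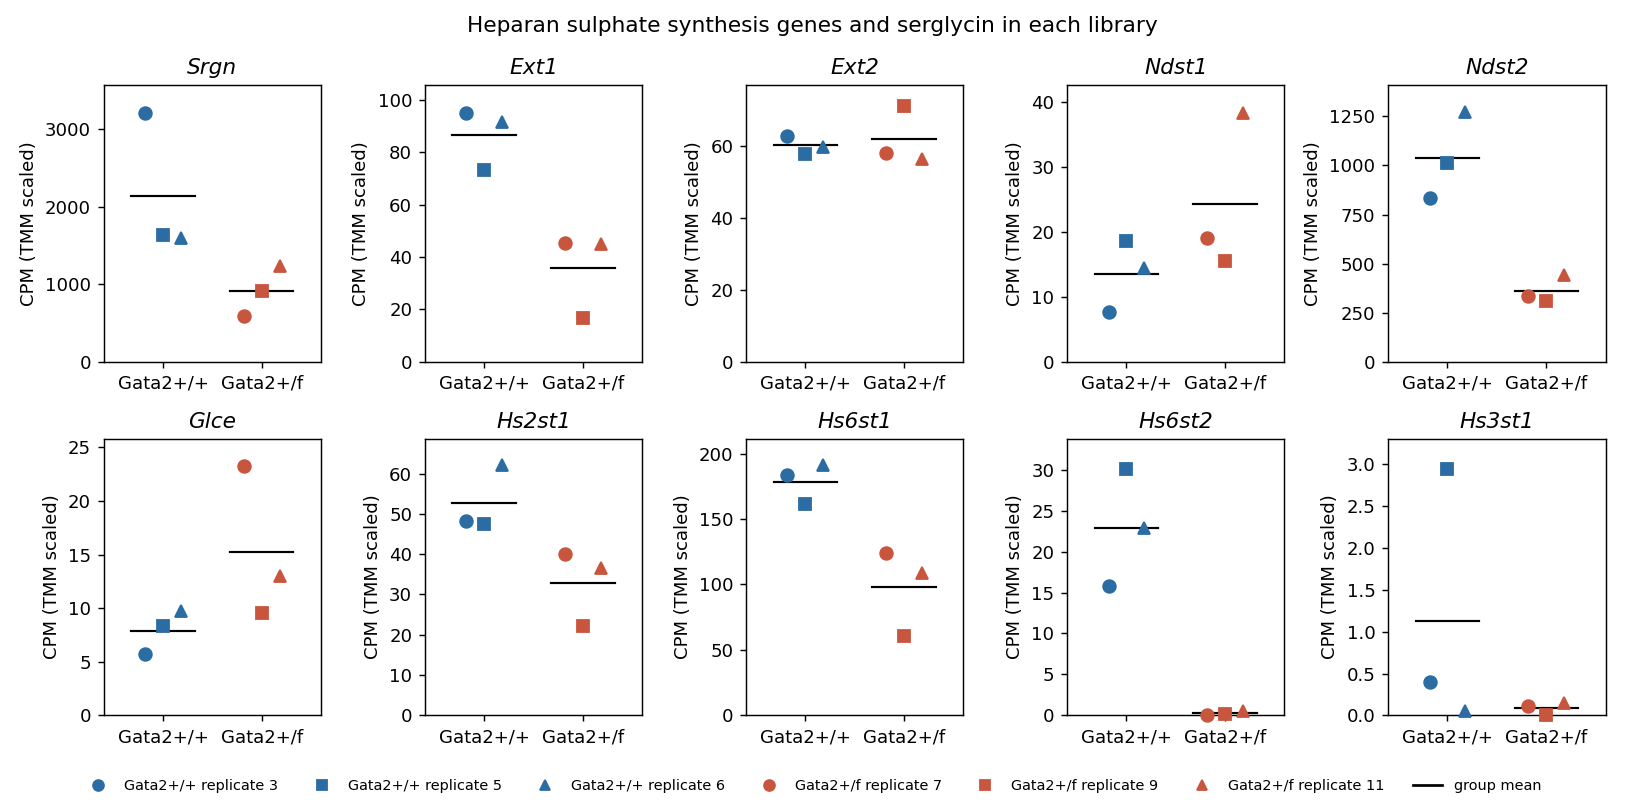
Levels in CPM (vertical axes, each from 0) of the 10 genes in each library, by genotype; 1 symbol is 1 library and the black line is the group mean of 3. For Srgn, Ext1, Ndst2, Hs2st1, Hs6st1 and Hs6st2 all 3 Gata2+/f symbols lie below the Gata2+/+ symbols, and for Ext2, Ndst1, Glce and Hs3st1 the groups overlap.

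The stretches before the start sites of 3 of the lower genes are shown because they differ in kind: 2 are rich in CpG (a C followed by a G, in capitals) and that of Srgn is not. They come from RefSeq (GRCm38.p6), run 5′ to 3′ on the gene's strand, which is the minus strand for all 3, and leave out transcribed bases of GENCODE exons. That of Hs6st2 precedes the inner of its 2 starts and lies in an intron of transcripts that begin further upstream.
Hs6st2, chrX:51680566-51680727, minus strand: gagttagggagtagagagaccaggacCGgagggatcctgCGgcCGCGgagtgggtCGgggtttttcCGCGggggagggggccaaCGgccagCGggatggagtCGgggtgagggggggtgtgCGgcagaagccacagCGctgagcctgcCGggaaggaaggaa
Ndst2, chr14:20734563-20734812, minus strand: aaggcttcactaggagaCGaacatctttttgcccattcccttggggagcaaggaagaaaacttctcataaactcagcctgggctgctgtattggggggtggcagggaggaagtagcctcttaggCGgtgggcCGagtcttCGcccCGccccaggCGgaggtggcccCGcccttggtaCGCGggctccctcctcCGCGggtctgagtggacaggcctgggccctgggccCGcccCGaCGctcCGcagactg
Srgn, chr10:62527452-62527695, minus strand: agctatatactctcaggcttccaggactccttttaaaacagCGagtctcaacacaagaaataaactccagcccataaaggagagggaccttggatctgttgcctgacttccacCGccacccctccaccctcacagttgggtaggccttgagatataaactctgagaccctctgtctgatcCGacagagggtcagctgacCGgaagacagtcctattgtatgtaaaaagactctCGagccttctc

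The Srgn stretch holds 5 CpG in 244 bases (49.6% G or C), that of Ndst2 15 in 250 bases (64.8%) and that of Hs6st2 13 in 162 bases (69.1%). RefSeq windows of 300 bases (250 before to 50 after a start) matched 8 of the 10 genes, with 10 windows in all, since Srgn and Hs6st2 have 2 starts each. Ndst1 and Ext1 had no entry. The windows held from 4 CpG (an internal start of Srgn) to 47 CpG (Hs6st1), with a median of 22, against a median of 7 over all 32851 windows. The motifs AGATAA and TGATAA, bound by GATA factors, occurred on either strand in 0 of the 10 windows and in 18.6% of all windows. TGTGGT, bound by RUNX factors, was found in 1 window (the internal start of Srgn) and in 16.8% of all. The E-box CANNTG was found in 3 windows, both of Srgn and that of Ext2, and in 72.3% of all. It reads the same on both strands, and each motif was searched on its own, so matches of different motifs may overlap. A match or its lack describes these letters only.

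Srgn, the core protein gene of the granule proteoglycan (minus strand of chr10:62493833-62527451, GRCm38), had the highest level per kilobase of exon of the 10. Gata2+/+ replicates 3, 5 and 6 stood at 3203, 1630 and 1592 CPM, and the Gata2+/f ones at 590, 912 and 1227 CPM (replicates 7, 9 and 11). The groups did not overlap, and Gata2+/+ replicate 3 was the highest by far. The means were 2142 ± 919 and 910 ± 319 CPM (SD, n = 3), a log2 fold change of −1.24 (SE 0.41; 95% interval −2.19 to −0.28). The difference did not pass in edgeR's test (adjusted p = 0.157), and without Gata2+/+ replicate 3 the log2 fold change was −0.77. The summed mast cell markers were at 1271, 1035 and 3907 CPM in Gata2+/f replicates 7, 9 and 11, and their part in the Srgn difference was not tested.

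Ext1, a subunit of the chain polymerase (minus strand of chr15:53064038-53346159), was lower in Gata2+/f, and its partner gene Ext2 was nearly level. Ext1 had 94.9, 73.2 and 91.6 CPM in Gata2+/+ replicates 3, 5 and 6 and 45.4, 16.6 and 44.9 CPM in Gata2+/f replicates 7, 9 and 11. All 3 Gata2+/f libraries were below the lowest Gata2+/+ library, and replicate 9 was the lowest of the 6. The log2 fold change was −1.28 (SE 0.39; edgeR adjusted p = 0.142), and −0.88 without Gata2+/f replicate 9. Ext1 lies on chromosome 15, whose genes as a group were shifted by 0.345, −0.130 and 0.365 (log2, median deviation over 359 genes) in Gata2+/+ replicates 3, 5 and 6 and by −0.023, −0.122 and −0.227 in Gata2+/f replicates 7, 9 and 11. Between the genotypes, the chromosome differed by −0.318 on average, and the other chromosomes that hold the 10 genes by −0.182 (chromosome 18, with Ndst1) to −0.010 (chromosome 9, with Glce). The part of the chromosome in the Ext1 difference was not tested.

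Ext2, the other subunit (minus strand of chr2:93661028-93822568), had 63.0, 58.0 and 59.8 CPM in the Gata2+/+ libraries and 58.2, 71.3 and 56.6 CPM in the Gata2+/f libraries, in the same order of replicates. The groups overlapped, with 0.04 as log2 fold change (SE 0.20; 95% interval −0.42 to 0.50; edgeR adjusted p = 0.919), an interval that leaves room for differences of up to 0.50 on the log2 scale. Per kilobase of the union of exons, Ext1 was 57.8%, 53.4% and 58.1% of the sum of both in Gata2+/+, and 41.5%, 17.4% and 41.9% in Gata2+/f. Which of both is the more abundant rests on the length used: per kilobase of the longest transcript, Ext1 was 42.3%, 38.0% and 42.6% in Gata2+/+ and 27.5%, 10.1% and 27.8% in Gata2+/f, and thus below Ext2 in all 6 libraries. By either length the share of Ext1 was lower in each Gata2+/f library than in any Gata2+/+ library. The exact permutation test of this share, two-sided, gave p = 0.1, the smallest that 3 against 3 libraries allow (0.2 after Benjamini-Hochberg adjustment over the 4 shares tested, those of Ext1, Ndst1, Ndst2 and Ndst3).

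Ndst2, the N-sulphotransferase that heparin synthesis in mast cells depends on (minus strand of chr14:20723730-20734562), came next to Srgn in level per kilobase. Its levels were 832, 1013 and 1269.6 CPM in replicates 3, 5 and 6 of Gata2+/+ and 332, 309 and 440.0 CPM in Gata2+/f replicates 7, 9 and 11. The Gata2+/f libraries lay close together, and the highest of them was well under the lowest of Gata2+/+. The means were 1038 ± 220 and 360.5 ± 69.8 CPM (SD, n = 3), and Gata2+/f stood at 34.7% of Gata2+/+ by the fitted model (log2 fold change −1.53, SE 0.28; 95% interval −2.18 to −0.88). This was the smallest adjusted p of the 8 in edgeR's test (0.0955), and DESeq2 called it lower, as given above. Leaving out 1 library at a time gave log2 fold changes from −1.65 to −1.32.

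Ndst1, the N-sulphotransferase used by most cells for heparan sulphate (minus strand of chr18:60684494-60748650), did not follow Ndst2. Its libraries were at 7.68, 18.6 and 14.4 CPM in Gata2+/+, against 19.1, 15.6 and 38.3 CPM for Gata2+/f (log2 fold change 0.84, SE 0.46, edgeR adjusted p = 0.313). The groups overlapped, and Gata2+/f replicate 11 was the highest. Without that library the log2 fold change was 0.39. Ndst3, a paralogue outside the 10, was uneven, at 43.5, 36.9 and 2.68 CPM in Gata2+/+ against 0.920, 0.00 and 12.1 CPM in Gata2+/f, and Ndst4 had fewer than 1 CPM in each library. Per kilobase of exon, Ndst2 made up 94.3% to 99.3% of the Ndst1, Ndst2 and Ndst3 transcripts in every library. The share of Ndst1 was 0.492%, 0.982% and 0.620% in Gata2+/+ and 3.05%, 2.70% and 4.51% in Gata2+/f. The Ndst1 shares did not overlap (exact permutation test, two-sided, p = 0.1, the smallest possible for 3 against 3, and 0.2 adjusted over the 4 shares). Those of Ndst2 and Ndst3 overlapped between the groups (p = 0.2 and 0.3 in the same exact test, adjusted 0.267 and 0.3).

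Glce, the epimerase that prepares the chain for sulphation by Hs2st1 (minus strand of chr9:62057248-62122655), was low throughout, with 5.70, 8.32 and 9.70 CPM in the Gata2+/+ libraries and 23.3, 9.54 and 12.99 CPM in the Gata2+/f ones. Gata2+/f replicate 9 lay within the Gata2+/+ range and replicate 7 was the highest of all (log2 fold change 0.95, SE 0.43; edgeR adjusted p = 0.239). Without replicate 7 the log2 fold change was 0.55. Hs2st1, which acts on iduronic acid (minus strand of chr3:144429706-144570181), had 48.2, 47.5 and 62.2 CPM in the Gata2+/+ libraries, against 40.1, 22.1 and 36.6 CPM. The groups did not overlap, with a narrow gap between Gata2+/f replicate 7 and Gata2+/+ replicate 5 (log2 fold change −0.68, SE 0.29; edgeR adjusted p = 0.217; −0.40 without Gata2+/f replicate 9).

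Hs6st1, the widely expressed 6-O-sulphotransferase (plus strand of chr1:36068400-36106446), had 183, 161 and 191 CPM in Gata2+/+ replicates 3, 5 and 6 and 124, 60.9 and 109 CPM in Gata2+/f replicates 7, 9 and 11. The groups did not overlap, and replicate 9 was the lowest. This gave −0.87 as log2 fold change (SE 0.29; 95% interval −1.54 to −0.19; edgeR adjusted p = 0.159), or −0.56 without Gata2+/f replicate 9. The strand setting of the counting is not given in the sources used here, and Hs6st1 shares 447 exon bases with the antisense gene Gm37335, which was at 0 counts in each library.

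Gata2+/f replicate 9 was the lowest library for Ndst2, Ext1, Hs6st1 and Hs2st1, and the highest for Ext2. Leaving it out brought Ext1, Hs6st1 and Hs2st1 nearer to 0, as given above, and each stayed below 0.

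Hs6st2, the other 6-O-sulphotransferase and the gene chosen for its low level, had 792, 1768 and 1469 counts in Gata2+/+ replicates 3, 5 and 6 and 5, 12 and 33 counts in Gata2+/f replicates 7, 9 and 11. On the CPM scale these were 15.8, 30.1 and 22.9 against 0.0707, 0.201 and 0.493. Each Gata2+/f library was above the 3 counts taken as the limit of detection (0.0424 to 0.0501 CPM there). That limit covers counting error only, and whether these few counts come from the gene's own transcript was not tested. The fitted log2 fold change was −6.48, a level 89.4-fold higher in Gata2+/+, and −7.37 without Gata2+/f replicate 11. Hs6st2 was 5.78%, 11.7% and 7.83% of the Hs6st1 and Hs6st2 transcripts per kilobase in Gata2+/+ and 0.0405%, 0.233% and 0.320% in Gata2+/f. Hs6st1 was therefore the main 6-O-sulphotransferase transcript in all 6 libraries, and Hs6st3 was at 0 counts in each.

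**Figure D2:**
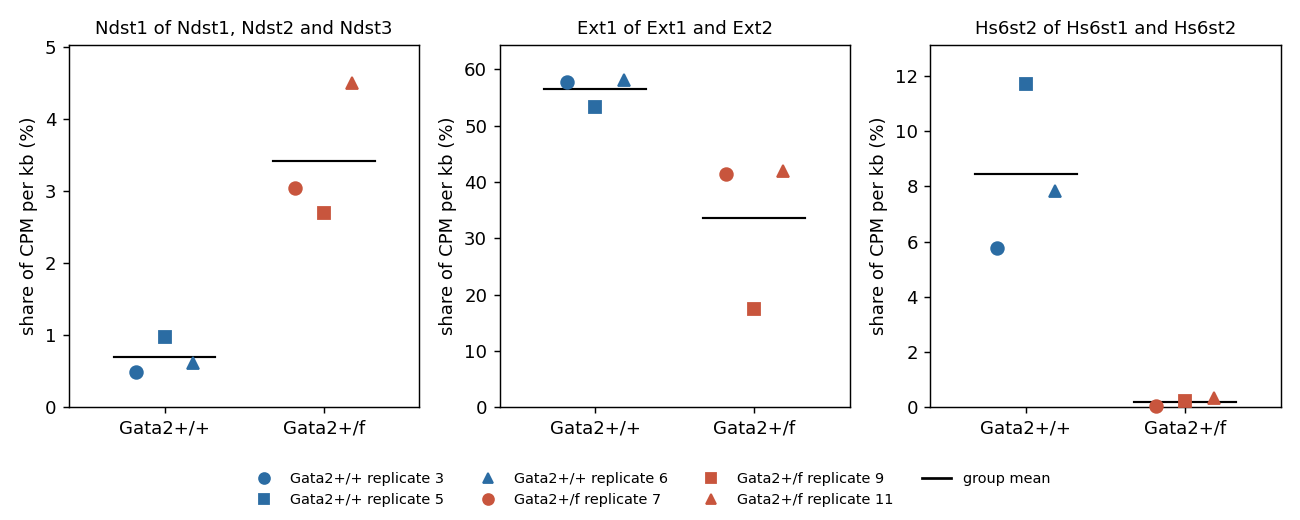
Share (%, vertical axes from 0) of Ndst1, Ext1 and Hs6st2 in the CPM per kilobase of exon of their paralogues, by genotype; 1 symbol is 1 library and the line is the mean of 3. Ndst1 is at most 0.982% in Gata2+/+ and at least 2.70% in Gata2+/f, Ext1 is at least 53.4% and at most 41.9%, and Hs6st2 is at least 5.78% and at most 0.320%.

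Of the genes next to Hs6st2, 0 were lower in Gata2+/f without overlap, against 16.6% of all tested genes. So few genes cannot show a departure from that share. Hs6st2 lies on the minus strand of chromosome X (GRCm38, 51387212 to 51681856). The 4 nearest tested genes on each side, from Stk26 (494 kb before) to Phf6 (1230.4 kb after), had log2 fold changes from −0.09 (Rap2c) to 1.95 (Gpc3), with edgeR adjusted p of 0.209 or more. Stk26, a kinase gene, was higher without overlap (36.6, 39.0 and 33.8 against 54.5, 42.9 and 49.7 CPM), as were 13.1% of all tested genes. Gpc4 and Gpc3 next to Hs6st2 encode glypicans, membrane-anchored carriers of heparan sulphate chains. Gpc3 had 0.920, 3.44 and 1.26 CPM in the Gata2+/+ libraries and 2.04, 13.5 and 6.19 CPM in Gata2+/f. The chromosome as a whole was shifted by −0.17 to 0.09 (log2) in any library. Xist, made from the inactive X of females, was under 1 CPM in Gata2+/+ replicate 3 and Gata2+/f replicates 7 and 9, and at 1287 to 1859 CPM in the other libraries. The part of sex in the Hs6st2 levels was not tested.

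**Figure D3:**
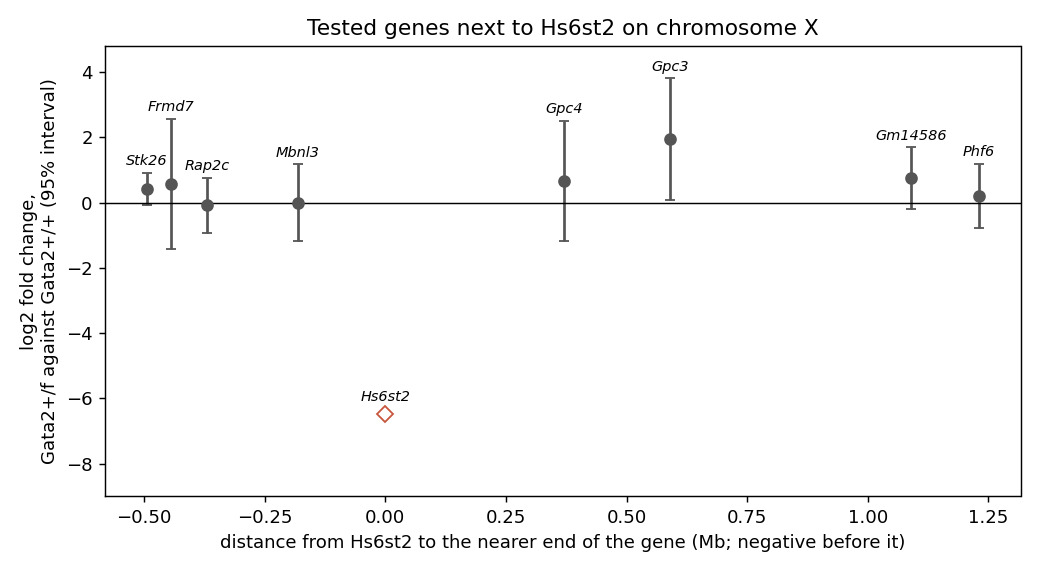
Log2 fold change, Gata2+/f against Gata2+/+, (vertical axis) of Hs6st2 (open diamond, with no interval because it was chosen for its level) and, with 95% intervals, of the 4 nearest tested genes on each side, by distance in Mb (horizontal axis). The 8 neighbours lie between −0.09 and 1.95, and Hs6st2 at −6.48.

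The genes whose log2 CPM followed Hs6st2 most closely over the 6 libraries were Trim12a (Pearson's r = 0.9975), Gm37336 (0.9972), Phf1 (0.9970), Gm7367 (0.9966) and Stard13 (0.9963). The 6 points form 2 groups of 3, which do not overlap for any of the 5 genes, all lower in Gata2+/f. That direction follows from how the 5 were picked, by their r to a gene chosen for its low level in Gata2+/f. Of the 5, Stard13 had the widest gap, with 102, 235 and 158 counts in Gata2+/+ and 0, 4 and 7 in Gata2+/f. Phf1, a Polycomb accessory gene, had 82.4 ± 14.2 CPM in Gata2+/+ against 20.7 ± 4.47 CPM in Gata2+/f (SD, n = 3).

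Hs3st1, which adds the rare 3-O-sulphate that antithrombin binds (minus strand of chr5:39613935-39755475), was close to absent. There were 20, 173 and 3 counts in Gata2+/+ replicates 3, 5 and 6 (0.400, 2.94 and 0.0467 CPM) and 8, 0 and 10 counts in Gata2+/f replicates 7, 9 and 11. Only Gata2+/+ replicate 5 exceeded 1 CPM, and a count of 0 in Gata2+/f replicate 9 allows up to 3 counts (0.0501 CPM). The groups overlapped. The other 3-O-sulphotransferase genes were low too: Hs3st3b1 had 0.120 to 1.17 CPM, Hs3st4 and Hs3st5 were at 0 counts in every library, and Hs3st2, Hs3st3a1 and Hs3st6 stayed under 0.1 CPM. Of the 9 chain modification genes outside the 10, 2 were tested (Ndst3 and Hs3st3b1), and the groups overlapped for both.

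Ordered by mean CPM per kilobase of the union of exons, Gata2+/+ had Srgn first (975 ± 419), then Ndst2 (228 ± 48.4), Hs6st1 (32.2 ± 2.79), Ext1 (10.7 ± 1.45), Ext2 (8.23 ± 0.343), Hs2st1 (6.41 ± 1.01), Hs6st2 (2.94 ± 0.913), Ndst1 (1.64 ± 0.666), Glce (1.16 ± 0.298) and Hs3st1 (0.507 ± 0.709; SD, n = 3). The library ranges of neighbours in this order did not overlap down to Hs6st2, and those of Hs6st2 and Ndst1, Ndst1 and Glce, and Glce and Hs3st1 did. With the longest transcript as length, Ext1 and Ext2 changed places in this order and the other 8 genes kept theirs. In Gata2+/f the first 3 were the same, Srgn (414 ± 145), Ndst2 (79.3 ± 15.4) and Hs6st1 (17.7 ± 5.93). Ext2 (8.47 ± 1.10) then stood above Ext1 (4.41 ± 2.05) without overlap, and Hs2st1 (4.01 ± 1.16), Ndst1 (2.94 ± 1.48) and Glce (2.24 ± 1.05) followed with overlapping ranges. Hs3st1 (0.0393 ± 0.0350) and Hs6st2 (0.0326 ± 0.0277) were last and overlapped.

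The rest of the pathway was read from 7 lists of 70 genes, of which 60 are not among the 10 and 49 of those were tested. edgeR called 0 of the 49 at adjusted p under 0.05. DESeq2 called 6 lower and 2 higher, against 5.73% and 6.19% of all genes it tested. Before adjustment, p was below 0.05 for 7 lower and 8 higher genes, against 11.5% and 11.1% of all tested genes, and 9 were lower and 6 higher without overlap, against 16.6% and 13.1%. The median log2 fold change of the 49 was 0.22, against 0.019 for all tested genes. By unadjusted p and by overlap, these genes as a whole thus stood near the background in both directions. By DESeq2 the share called lower was above the background, and the share called higher was not.

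Of 13 genes that supply sugar and sulphate donors, 3 were lower and 0 higher without overlap, against 16.6% and 13.1% of all tested genes. The median log2 fold change of the 13 was 0.02. Papss2, an enzyme that makes the sulphate donor PAPS, was at 318, 337 and 374 CPM in the Gata2+/+ libraries, against 61.8, 91.0 and 159 CPM in the Gata2+/f libraries (−1.72 on the log2 scale, SE 0.36, edgeR adjusted p = 0.0966). Its paralogue Papss1 ranged from 25.7 to 31.6 CPM and from 27.5 to 32.2 CPM. The nucleotide sugar transporter genes Slc35d1 (−1.43, SE 0.37) and Slc35d2 (−0.72, SE 0.28) were the others without overlap, and Impad1 had −0.60 with overlapping groups. DESeq2 called Papss2, Slc35d1 and Slc35d2 lower.

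Of 7 linkage region genes (median −0.29), 2 were lower and 3 higher without overlap, against 16.6% and 13.1% of all tested genes. The 2 lower were B4galt7, which adds the first galactose (log2 fold change −0.83), and B3gat3 (−0.29). The 3 higher were the xylose phosphatase gene Pxylp1 (1.66), B3galt6 (0.71) and Xylt2 (0.24). The xylose kinase gene Fam20b had −0.57 with overlapping groups. The edgeR adjusted p of these genes was 0.179 to 0.683. The 3 Ext-like genes outside the 10, Extl1, Extl2 and Extl3, had log2 fold changes of 0.17 to 0.28 with overlapping groups. Of the 4 genes that trim finished chains, the heparanase gene Hpse (1.54, SE 0.66) and the 6-O-sulphatase gene Sulf2 (1.44, SE 0.75) were tested, with overlapping groups, and Sulf1 and Hpse2 were at 0 counts in every library.

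Of the 14 tested core protein genes other than Srgn, 11 had positive log2 fold changes (median 1.03). Without overlap, 2 were higher and 0 lower, against 13.1% and 16.6% of all tested genes. In edgeR's test 6 of the 14 had an unadjusted p under 0.05, all higher, against 11.1% of all tested genes. edgeR called 0 of the 14 at adjusted p under 0.05, and DESeq2 called 1 as higher, against 6.19% of all genes it tested. The syndecan gene Sdc1 had 1.70, 2.84 and 2.27 CPM in the Gata2+/+ libraries, against 4.30, 6.28 and 4.39 CPM (log2 fold change 1.13, SE 0.42), and was the gene that DESeq2 called, as higher. The glypican gene Gpc1 had 6.10, 20.0 and 10.7 CPM against 21.4, 67.3 and 21.4 CPM (1.58, SE 0.60), and the groups of Cd44 (0.77) and Nrp1 (1.92) overlapped. The 14 together with 2 untested genes summed to 166 to 223 CPM in Gata2+/+ against 243 to 384 CPM in Gata2+/f, under Srgn alone in each library. Cd44 was the largest part of that sum in each library, at 85.9 to 129 CPM in Gata2+/+ and 120 to 232 CPM in Gata2+/f.

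Lysosomal enzymes that take heparan sulphate apart included some of the widest gaps among the 49. Of 8 (median −0.68), 4 were lower and 1 higher without overlap, against 16.6% and 13.1% of all tested genes. The N-sulphoglucosamine sulphohydrolase gene Sgsh had 20.6, 46.0 and 42.6 CPM in the Gata2+/+ libraries, against 8.23, 6.82 and 11.7 CPM (log2 fold change −2.03, SE 0.39), and the sulphatase gene Ids −1.72 (SE 0.38). The beta-glucuronidase gene Gusb was at 60.6, 78.1 and 70.6 CPM in Gata2+/+ against 125, 138 and 110.3 CPM in Gata2+/f (0.83, SE 0.20). None of these passed in edgeR's test (adjusted p of 0.0966 to 0.107), and DESeq2 called Sgsh and Ids lower and Gusb higher.

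**Figure D4:**
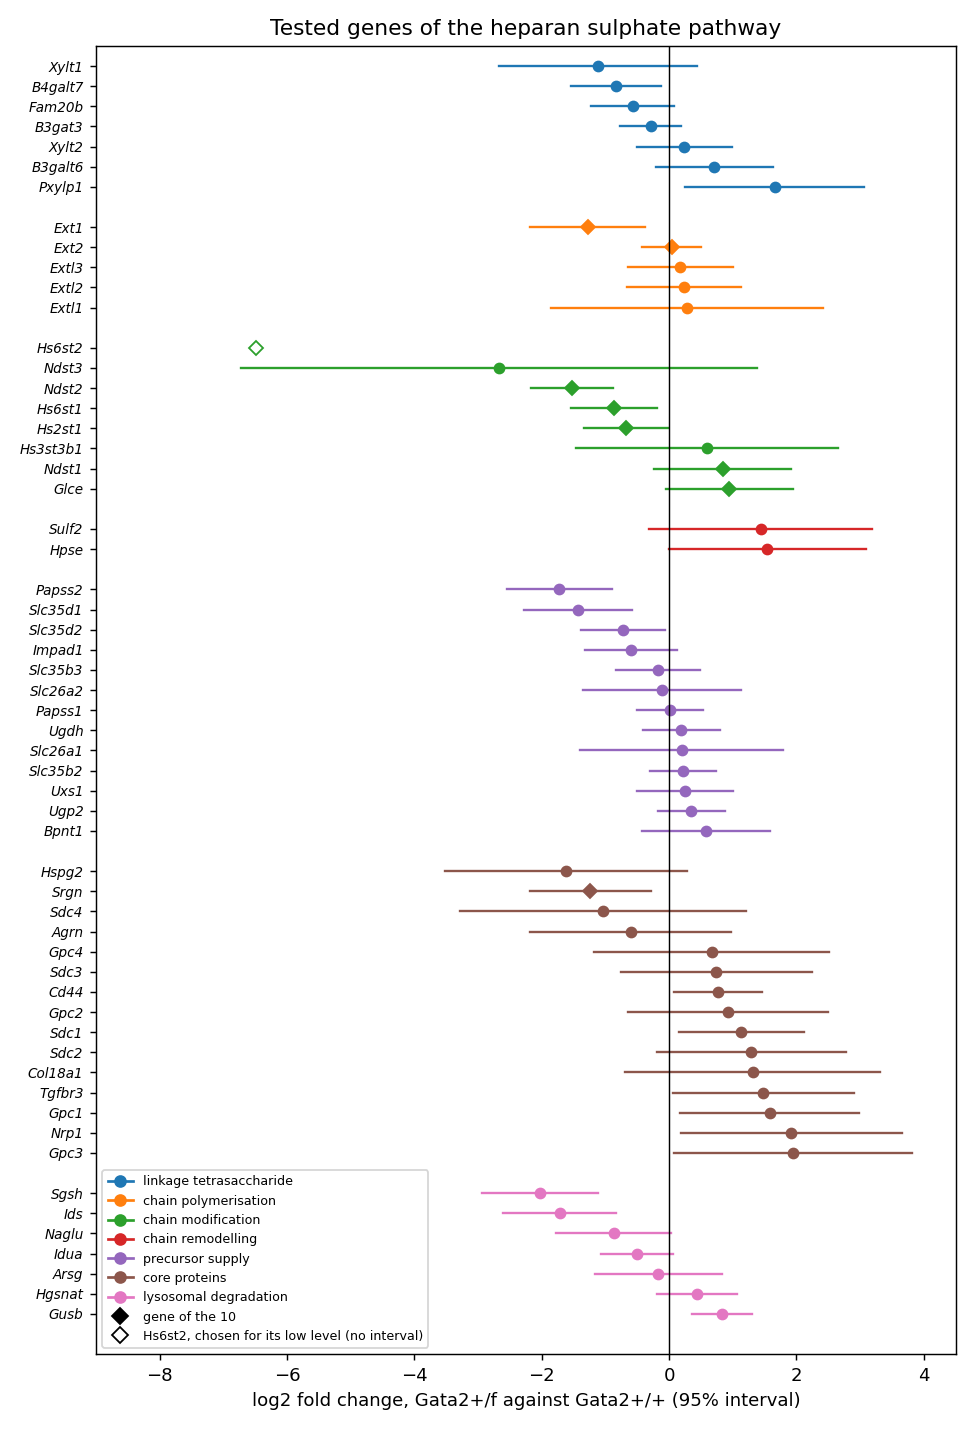
Log2 fold change, Gata2+/f against Gata2+/+ (horizontal axis), with its 95% interval for the tested genes of the 7 pathway lists, grouped by list (1 lysosomal gene is not shown); diamonds are the tested genes of the 10 and the open diamond, with no interval, is Hs6st2. Sulphate donor supply, chain sulphation and lysosomal degradation hold the lowest values (Papss2 −1.72, Sgsh −2.03, Ndst3 −2.67 with a wide interval, Hs6st2), and most core protein genes other than Srgn lie right of 0.

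Of 12 genes of the proteases and amines that serglycin stores, 5 of which are also among the mast cell markers, 11 were tested. Of these 11, 6 were lower and 0 higher without overlap, against 16.6% and 13.1% of all tested genes. The mast cell chymase gene Cma1 had 3188, 2146 and 2996 CPM in Gata2+/+ replicates 3, 5 and 6 and 1.61, 97.9 and 98.8 CPM in Gata2+/f replicates 7, 9 and 11, and Hdc, which makes histamine, had 795, 514 and 1045 against 291, 141 and 249 CPM. Primary granule protease genes of neutrophils overlapped between the groups, with 73.2 to 332 CPM for Ctsg in Gata2+/+ and 187 to 1205 CPM in Gata2+/f, the highest in replicate 9.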

How the data were processed

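RNA from c-kit+ marrow cells was sequenced from poly-A selected libraries made with a stranded kit, per the labels' protocols. Tools listed in the submitters' processing notes are RSEM 1.3.0, STAR 2.5.4a and CASAVA 1.8.2, with the build GRCm38. The authors deposited RSEM expected counts per Ensembl gene, unscaled; 11.7% of the values were not whole. The annotation release and strand setting are not given in the sources used here. The members and lists were chosen with earlier results of these data known.

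GENCODE M21 held 42548 of the 43629 IDs (97.5%). Counts were rounded, filtered with filterByExpr (minimum count 10, leaving 15432 genes), scaled by TMM (factors 0.821 to 1.11) and compared by edgeR 4.0.16 (R 4.3.3; quasi-likelihood test in its legacy form, genotype as the sole term). P-values were adjusted by Benjamini-Hochberg across the tested table and called under 0.05. CPM use effective library sizes, at which 3 counts are 0.0424 to 0.0600 CPM; such limits cover counting error only. Levels per kilobase use the union of a gene's exons. Chromosome shifts are medians, taken where a gene averages at least 3 in log2 CPM (prior count 2), of the deviation from the gene's median. Named are the 10 genes, Gata2, up to 4 genes of each list from those with the smallest p, the 4 tested genes on each side of Hs6st2, the 5 genes most like it and cell type markers. Not every gene under these rules is named (Mcpt4 is not in the results), and others (such as Papss1 and Ctsg) were picked with values in view. The fit was also run with limma 3.58.1 voom, DESeq2 1.42.0, edgeR's newer form, other scalings, filters and thresholds, and leaving out each library. On simulated data with known changes, edgeR's test called 0 of 65 genes changed 2-fold, 17 of 65 changed 4-fold and 50 of 66 changed 16-fold. It also made 7 false calls, with 15144 genes simulated and tested. A gene that this test did not call may therefore still differ, in the simulation above all where the change was small. In these data large changes went uncalled too, such as that of Add2 (log2 fold change 6.25, edgeR adjusted p = 0.0509). The simulation changed far fewer genes than the 3486 that had an unadjusted p under 0.05 in edgeR's test. The values of 1 lysosomal gene are not reported here, though it is included in the counts of its list.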

Additional observations from a re-analysis of the deposited data

How the results depend on the processing

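The count of genes called at adjusted p under 0.05 depended on the method: 0 in edgeR's quasi-likelihood test (3486 at an unadjusted p under 0.05), 1829 in DESeq2, 32 in edgeR's newer form, 9 in limma voom, 19 with no filter beyond 1 count and 444 at a threshold of 0.1, and 0 with RLE or upper quartile factors or a filter of 1 CPM in 3 libraries. Leaving out 1 library gave 0 to 66 genes, the highest without Gata2+/f replicate 11. Of the 8 tested genes other than Hs6st2, DESeq2 called 2 and the threshold of 0.1 called 1 (Ndst2). Of the pathway genes without Hs6st2, DESeq2 called 10 and the threshold of 0.1 called 4; leaving out 1 library gave 0 to 2, the latter without Gata2+/f replicate 11 and with Papss2 among them. Leaving out 1 library gave Ext2 a log2 fold change of −0.0183 (without Gata2+/f replicate 9, a change of sign) to 0.1436 (without Gata2+/f replicate 11), and no other of the 9 tested genes changed sign under any of 13 alternatives. Upper quartile factors moved the median of all genes to 0.111 (0.031 with RLE factors). With the longest transcript as length, 8 of the 10 kept their place in the Gata2+/+ order, and Ext1 and Ext2 changed places; paralogue shares by that length were added after seeing the data. No paired analysis was possible because the groups share no replicate numbers. Depth limits Hs3st1 and, in Gata2+/f, Hs6st2.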

Other observations

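Chondroitin sulphate, the other sulphated chain that serglycin can carry, shares the linkage region and the sulphate donor with heparan sulphate. Of 16 genes of its synthesis 14 were tested, with a median log2 fold change of 0.52, against 0.019 for all tested genes. Of the 14, 3 were lower and 2 higher in Gata2+/f without overlap, against 16.6% and 13.1% of all tested genes. edgeR called 0 at adjusted p under 0.05, and DESeq2 called 2 lower, against 5.73% of all genes it tested. Chst15, which makes the doubly sulphated chondroitin of mast cells, had 293, 280.2 and 201 CPM in Gata2+/+ replicates 3, 5 and 6 and 72.0, 31.4 and 100.1 CPM in Gata2+/f replicates 7, 9 and 11 (log2 fold change −1.93, SE 0.42, edgeR adjusted p = 0.0966). The chain-starting enzyme gene Csgalnact2 had 172 ± 31.4 and 90.3 ± 13.02 CPM (SD, n = 3; −0.93, SE 0.23) and the 4-O-sulphotransferase gene Chst11 154 ± 8.97 and 77.1 ± 37.7 CPM (−0.99, SE 0.39), both lower without overlap. The 2-O-sulphotransferase gene Ust was under 3 CPM in every library and higher in Gata2+/f (2.01, SE 0.76).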
